A study of Mus musculus with 8 samples.

Results

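Follistatin (Fst), the inhibin alpha subunit (Inha), the inhibin/activin beta A subunit (Inhba) and the activin receptors Acvr1b, Acvr2a and Acvr2b were followed in embryonic mouse gonads through all probe sets annotated to these 6 genes, of 8251 genes named by a probe set of their own. There were 7 such probe sets among the 12488 on the array, 2 of them for Acvr2a and 1 for each other gene, and none was shared with another gene. The array was the Affymetrix MG_U74Av2, which carries short oligonucleotide probes. It was hybridised with cRNA made from total RNA of dissected gonads from wild type (WT) embryos and from embryos with a Wnt4 knock-out (KO), of both sexes, at embryonic days 12.5 and 14.5 (E12.5 and E14.5). The 8 groups were thus WT female, KO female, WT male and KO male at each stage, and each group had 1 array, so that no group had a replicate and their number limits the precision of every value. The labels call the female tissue embryonic ovary and the male tissue embryonic testis, and they give neither the strain, the Wnt4 allele nor the number of embryos behind an array.

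Activins are dimers of inhibin beta subunits. They bind a type II receptor, ACVR2A or ACVR2B, which recruits and phosphorylates the type I receptor ACVR1B (ALK4), and the signal passes to the nucleus through SMAD2 and SMAD3 with SMAD4. Follistatin wraps around activin and keeps it from its receptors, while the alpha subunit joins a beta subunit to form inhibin, which competes for the type II receptors. In the fetal gonad, Fst is known as a gene of the ovarian supporting cells, the pregranulosa cells, that acts downstream of Wnt4, and Inha and the beta subunits are known from Sertoli and Leydig cells, the supporting and the androgen-producing cells of the testis.

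Values are log2 signals after each array was centred on the mean of the array medians. Values under a floor of 6.99, the 40th percentile of all values, were set to the floor for fits. Tests came from 1 limma fit over all 8 arrays to 8445 probe sets that were above the floor on at least 2 arrays, with sex by genotype and sex by stage terms. Errors are standard errors (SE) of that fit, whose 2 residual degrees of freedom come from how far the genotype effect differed between the stages of a sex. A change passed at a Benjamini-Hochberg adjusted p under 0.05 over all fitted probe sets. Of the 7 probe sets of these genes, 6 were fitted, and the second probe set of Acvr2a lay under the floor on all 8 arrays.

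Some arrays stood apart or carried transcripts of the other sex. The E14.5 male arrays correlated with the other 6 at a Pearson r of 0.883 to 0.907 across probe sets, against 0.979 to 0.997 among those 6. The array labelled WT female E14.5 had a level of 7.63 for the Y-linked gene Eif2s3y, against 4.86 to 6.04 on the other female arrays and 6.91 to 8.12 on the male arrays. Its level of Xist, the RNA of the inactive X chromosome, was 7.10, against 7.69 to 8.13 on the other female arrays and 4.07 to 4.79 on the male arrays. The Eif2s3y probe set has the suffix f_at, which Affymetrix gave to sets shared within a gene family. Uty and Kdm5d, also Y-linked, were under the floor on all 8 arrays, and Kdm5d did not separate the sexes (5.87 to 6.37 in females, 5.80 to 6.43 in males). The array labelled KO male E14.5 held the meiotic germ cell transcript Stra8 at 7.44, against 5.70 on the WT male array of that stage. Wnt4, the targeted gene, was at 10.19 in WT and 8.59 in KO females at E12.5, at 9.45 and 8.32 at E14.5, at 9.26 and 8.34 in WT and KO males at E12.5, and at 9.42 and 9.19 at E14.5. The sources used here do not say whether its probes lie in deleted sequence.

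**Figure D1:**
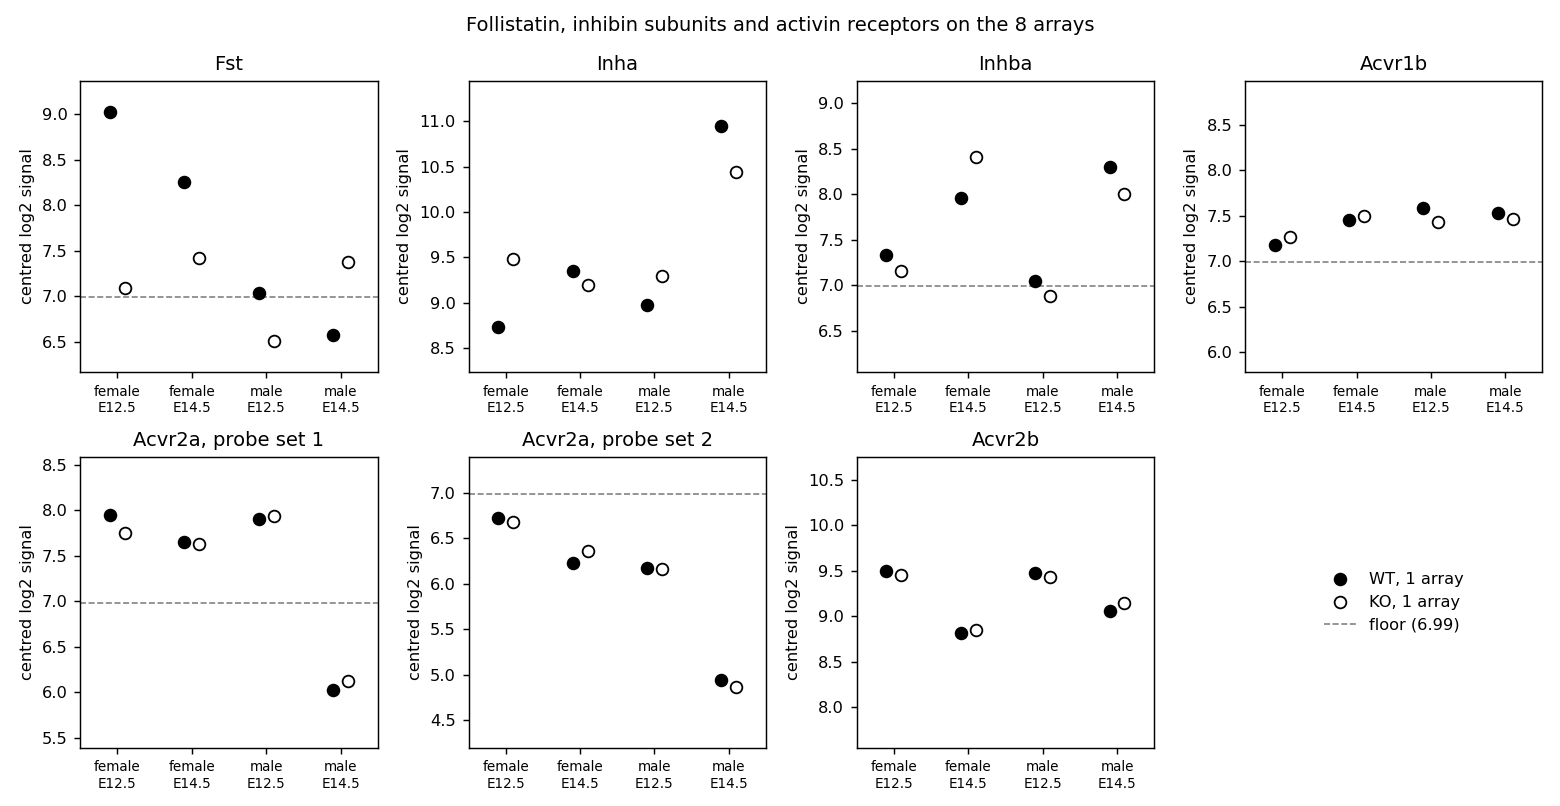
Centred log2 signal (y axis) of the 7 probe sets by sex and stage (x axis), with 1 array per point, WT filled and KO open, and the floor dashed. The y axes all span the same number of log2 units. Fst is highest on the array of WT females at E12.5 (9.02), Inha on the E14.5 male arrays (10.94 and 10.44), and Acvr1b lies between 7.18 and 7.58 throughout.

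Fst, which lies on chromosome 13 (chr13:114452262-114458989, GRCm38.p6), was highest in the WT ovary on these arrays. It was at 9.02 in WT females at E12.5 and at 8.25 in WT females at E14.5, while KO females of the same stages had 7.09 and 7.42. The males had 7.04 (WT) and 6.51 (KO) at E12.5, and 6.57 (WT) and 7.37 (KO) at E14.5. The WT females thus had the highest levels, and the other 6 arrays lay between 6.51 and 7.42, near or under the floor.

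KO minus WT, the female difference of Fst was -1.93 at E12.5, a 3.81-fold lower signal, and -0.83 at E14.5, a 1.78-fold lower signal. The former was the 1 KO difference of the 6 genes that reached 2-fold. Of all fitted probe sets, 0.178% were at least 2-fold lower and 0.0474% at least 2-fold higher in KO females at E12.5, and 0.189% and 0.0355% at E14.5. In males these shares were 0.0356% lower and 0.0711% higher at E12.5, and 0.0237% lower and 0.0355% higher at E14.5. In the fit over both stages the female KO effect was -1.38 ± 0.27 (SE), with a 95% interval of -2.10 to -0.66. It did not pass (limma adjusted p = 0.434, and 0.396 to 1 over the alternatives). This was the case for each of the 8445 probe sets, of which 0% passed while 959 had an unadjusted p under 0.05. Of the 6 member probe sets, 0 passed and 1 was under 0.05 unadjusted. Leaving out an array moved the Fst value over -1.93 to -0.83, since leaving out either array of a female pair leaves the other pair, and with the floor at the 60th percentile it was -0.60.

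In males Fst was dim. KO minus WT was -0.53 at E12.5 and 0.80 at E14.5 as measured, with 1 array under the floor in each pair, and the fitted effect was 0.17 ± 0.27 (limma adjusted p = 0.898). The male minus female difference in the KO effect was 1.55 ± 0.39, with a 95% interval of 0.54 to 2.56, and did not pass either (limma adjusted p = 0.435). It was 0.60 with the floor at the 60th percentile. For that comparison 0% of all probe sets passed.

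Between the sexes, Fst differed at E12.5 by -1.99 in WT and, as measured, by -0.59 in KO gonads, male minus female. The KO male array was under the floor, and with its value set to the floor the KO difference was -0.10. The difference at E12.5 averaged over the genotypes was -1.05 ± 0.27 (limma adjusted p = 0.0645), just outside the threshold. Without centring it passed (-1.07, limma adjusted p = 0.0267), as it did without a floor (-1.29, limma adjusted p = 0.0487), and the adjusted p ran from 0.0267 to 0.449 over all alternatives. At E14.5 the difference was -1.68 in WT as measured (-1.26 with the WT male value set to the floor) and -0.05 in KO. The fitted difference was -0.66 ± 0.27 (limma adjusted p = 0.0805). It passed in 4 of 16 alternatives, without centring (-0.80, limma adjusted p = 0.0317), without the WT (0.0201) or KO female E12.5 array (0.0218) and without the WT female E14.5 array (-1.21, 0.00898). With 1 array left out it ran from -1.21 to -0.11, the latter without the KO female E14.5 array.

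The mean of some other pregranulosa genes moved with Fst, while Rspo1 went the other way in females. Of the 7 other genes on a list of pregranulosa markers, 6 had a probe set, and the mean of 4 of them (Wnt4, Irx3, Kitl and Msx1) was 10.01 in WT and 8.53 in KO females at E12.5, and 9.68 and 8.88 at E14.5. In males it was 8.98 (WT) and 8.27 (KO) at E12.5, and 7.60 (WT) and 8.27 (KO) at E14.5. Like Fst it was higher in the WT than in the KO ovary at both stages and lower in the WT than in the KO testis at E14.5. The mean includes Wnt4, the targeted gene, so part of the lower KO mean in females is Wnt4 itself. It was at 10.19 in WT and 8.59 in KO females at E12.5, and at 9.45 and 8.32 at E14.5. Irx3, Kitl and Msx1 were each also lower in KO females at both stages. In E14.5 males Wnt4 went the other way from the mean, at 9.42 in WT and 9.19 in KO. In the same males Irx3 and Kitl were under the floor in WT (6.57 and 6.23) and at 7.77 and 7.65 in KO. That KO male array is the 1 that also held Stra8, at 7.44 against 5.70 in WT, so the E14.5 male values rest on an array with an unusual transcript. The reason was not tested. Bmp2 was under the floor on all 8 arrays, and Rspo1, which had 1 missing value, was higher in KO than in WT females, at 8.30 against 7.88 at E12.5 and 8.52 against 8.08 at E14.5. In bulk tissue, fewer cells of a type and less RNA per cell cannot be told apart, and the part of cell numbers in the Fst differences was not tested.

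**Figure D2:**
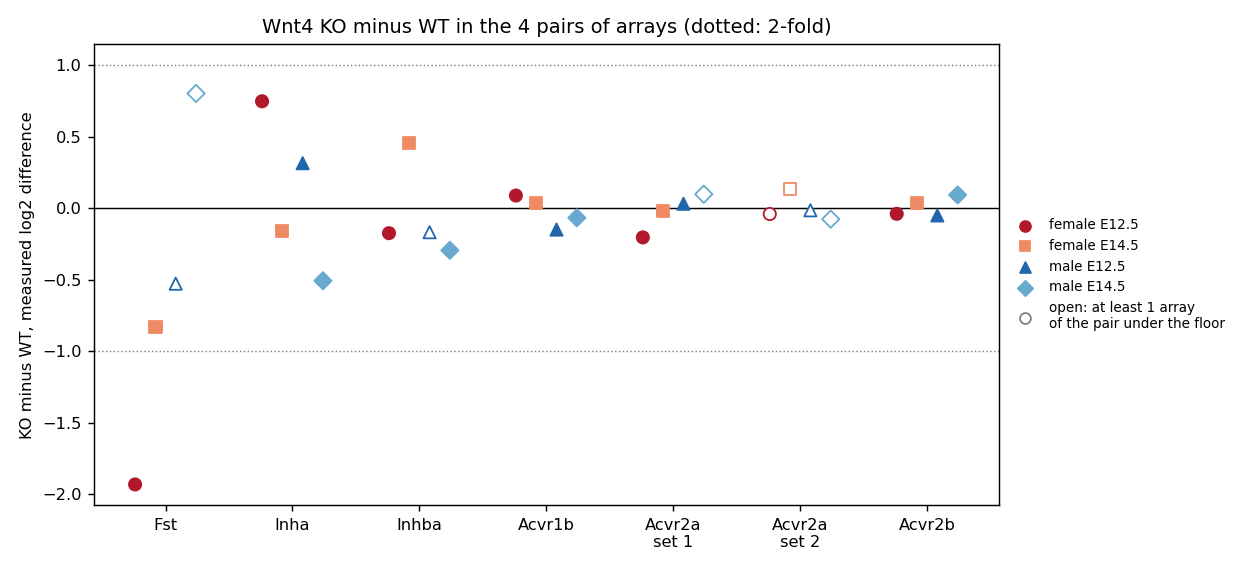
KO minus WT difference in log2 signal (y axis) for each probe set (x axis) in the 4 pairs of arrays, with open symbols where an array of the pair was under the floor and dotted lines at 2-fold. Fst in females at E12.5 (-1.93) is the 1 difference beyond 2-fold, and all 4 values of Acvr2b lie between -0.05 and 0.09.

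Genes with a profile like that of Fst were sought by the root mean square difference over the 8 arrays, after each gene's own mean was subtracted, among 2640 probe sets that spanned at least 1 log2 unit. The 5 nearest were Phlda2 (0.29), an imprinted gene, Msx1 (0.29), a homeobox gene of the pregranulosa list, Dusp9 (0.36), a phosphatase of MAP kinases, Itpr2 (0.38), a calcium channel of the endoplasmic reticulum, and Tnfrsf19 (0.43), which encodes a TNF-family receptor. All 5 were higher in WT than in KO females at both stages, for example Phlda2 at 9.01 against 7.45 at E12.5. Because they were chosen for likeness to Fst on these same arrays, the shared direction is not separate evidence. When both E14.5 male arrays were left out, a setting chosen after seeing the data, 4 of these 5 genes were again among the nearest 5, and Anp32a took the place of Tnfrsf19. The search then covered only 288 probe sets, those that spanned at least 1 log2 unit over the remaining 6 arrays. Both searches share these 6 arrays, so the overlap is not separate evidence either.

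**Figure D3:**
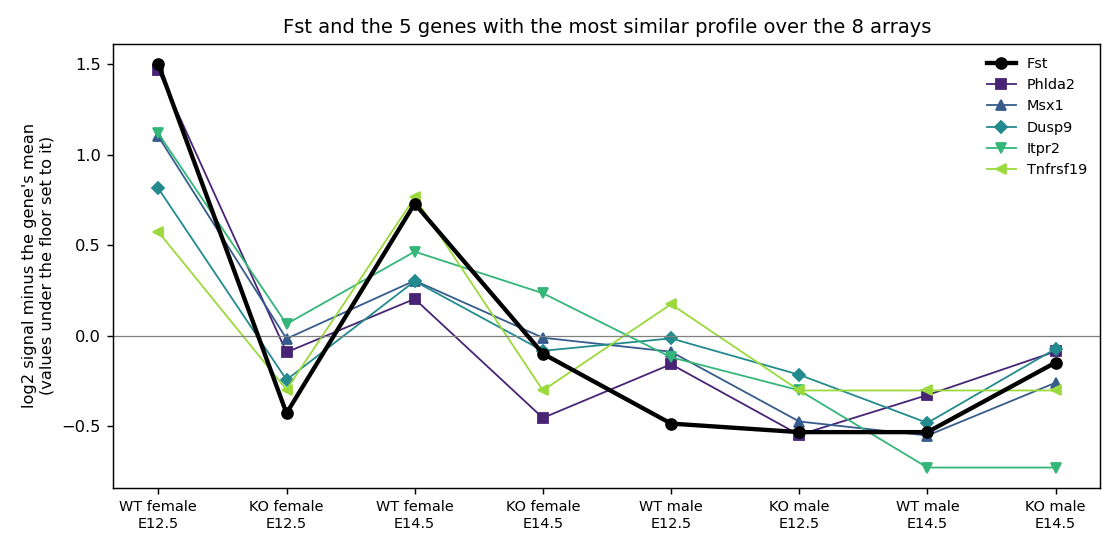
Log2 signal minus each gene's mean (y axis) on the 8 arrays (x axis) for Fst and its 5 nearest genes, with values under the floor set to it and lines joining the points of a gene. All 6 genes are higher in the WT than in the KO female at each stage, and the WT female at E12.5 is the highest array for each of them except Tnfrsf19. The 5 genes were chosen for their likeness to Fst on these same arrays.

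Inha (chr1:75507077-75510366, GRCm38.p6) was well above the floor on every array. At E12.5 it was at 8.74 in WT and 9.48 in KO females, and at 8.98 in WT and 9.30 in KO males. At E14.5 it was at 9.36 and 9.20 in WT and KO females, and at 10.94 and 10.44 in WT and KO males. The E14.5 males were the highest arrays, and among the other 6 the sexes overlapped.

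From E12.5 to E14.5, Inha rose in males by 1.55 ± 0.28 (limma adjusted p = 0.0054), with pair differences of 1.96 in WT and 1.14 in KO. In females the stage effect was 0.17 ± 0.28 (limma adjusted p = 0.742), with 0.62 in WT and -0.29 in KO. The male stage effect exceeded the female one by 1.39 ± 0.40 (limma adjusted p = 0.0312), and males were above females at E14.5 by 1.42 ± 0.28 (limma adjusted p = 0.00768). Against these stand 77.8%, 69% and 77.5% of all probe sets that passed in the same 3 comparisons, all of which rest on the E14.5 male arrays. Without centring the male stage effect of Inha was 0.77, while the median of all probe sets in that comparison was then -0.69. It no longer passed without a filter on dim probe sets (limma adjusted p = 0.0558), or when the WT male E12.5 (adjusted p = 0.177), the KO male E12.5 (0.0835) or the WT male E14.5 array (0.0974) was left out of the limma fit. The difference between the sexes in stage effect was lost without centring (0.86, limma adjusted p = 0.0834), without the filter (0.159), and without any 1 array other than the WT female ones (limma adjusted p = 0.0679 to 0.285). The sex difference at E14.5 was lost without the filter (0.0683), and without the WT male E12.5 (0.0732), KO male E12.5 (0.073), KO female E14.5 (0.0699) or WT male E14.5 array (0.123), again as limma adjusted p. At E12.5 males and females differed by 0.03 ± 0.28, with a 95% interval of -0.71 to 0.77. The estimate does not use the E14.5 male arrays, but its SE and interval come from the fit that includes them.

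The KO differences of Inha ran in opposite directions at the 2 stages. They were 0.75 in females and 0.31 in males at E12.5, and -0.16 in females and -0.51 in males at E14.5. The fitted effects over the stages were 0.29 ± 0.28 in females and -0.10 ± 0.28 in males (limma adjusted p = 0.679 and 0.95). The 5th and 95th percentiles of all fitted probe sets were -0.24 and 0.19 in the female E12.5 pair, and -0.21 and 0.27 in the male E14.5 pair, and Inha lay outside both ranges. They were -0.33 and 0.20 in the female E14.5 pair, where Inha (-0.16) lay inside, and -0.17 and 0.23 in the male E12.5 pair, where Inha (0.31) lay outside.

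The KO minus WT difference in the mean of Leydig cell transcripts had the same sign as that of Inha in each of the 4 pairs. The mean was taken over 5 Leydig genes of 6 listed (Cyp17a1, Cyp11a1, Hsd3b1, Star and Insl3) and was 6.73 in WT and 7.35 in KO females at E12.5, and 7.09 and 7.44 in males. At E14.5 it was 8.64 and 7.53 in WT and KO females, and 9.67 and 9.15 in males. The mean of 8 Sertoli genes was 7.90 and 8.03 in WT and KO females at E12.5, 9.27 and 9.22 in males, 8.52 and 7.81 in females at E14.5, and 9.51 and 8.93 in males at E14.5. Single genes differed from the mean, since in males at E12.5 Cyp17a1 was at 8.06 in WT and 7.99 in KO and Insl3, under the floor, at 6.1732 and 6.0036. The KO rise at E12.5 was largest for Star (6.68 to 8.08 in females, 7.04 to 7.94 in males) and Cyp11a1 (6.79 to 7.93, 7.25 to 8.00). In females Cyp17a1 was then at 7.32 in WT and 7.44 in KO. Cyp11a1, Hsd3b1, Star, Insl3 and the Leydig mean were all under the floor of 6.99 in WT females at E12.5. With stage, the Leydig mean of KO females went from 7.35 to 7.53 while Inha went from 9.48 to 9.20. The Leydig and Sertoli lists were both higher in the WT female at E14.5, the array that held Eif2s3y, than in the KO female. The mean of 2 adrenal cortex genes (Cyp21a1 and Mc2r) was also higher in KO at E12.5. It was 8.21 and 8.44 in WT and KO females, and 7.87 and 8.21 in males. At E14.5 it was 7.85 and 7.99 in WT and KO females, where Inha went the other way, and 7.88 and 7.77 in males. The part of these cells in the Inha values was not tested.

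**Figure D4:**
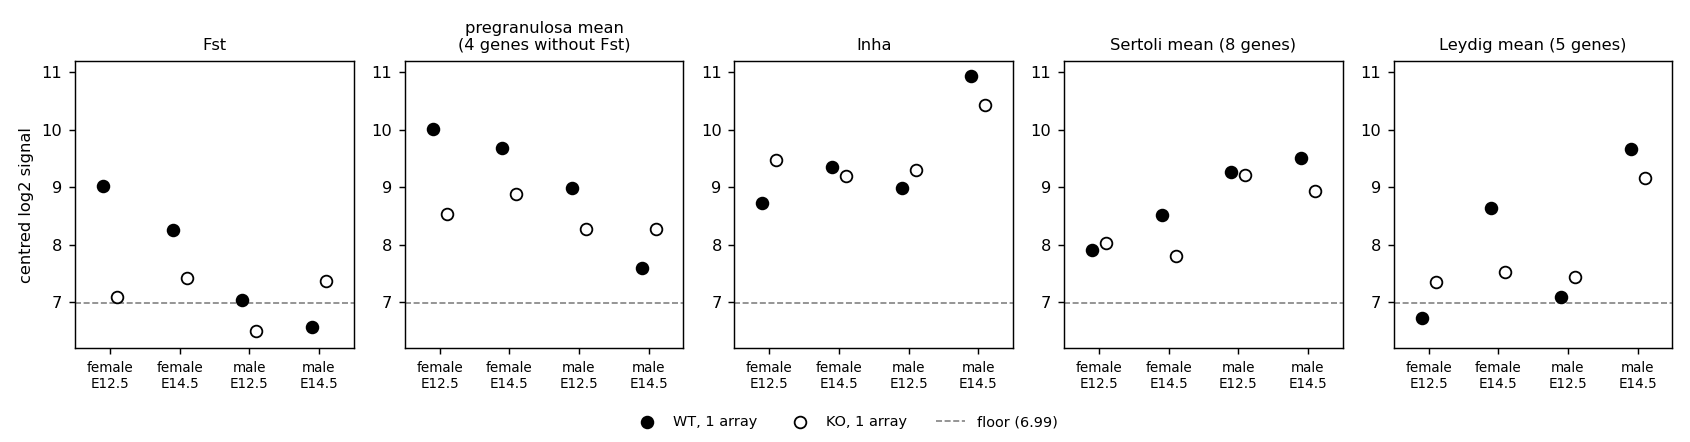
Centred log2 signal (y axis) of Fst and Inha beside the mean of pregranulosa, Sertoli and Leydig marker genes, by sex and stage (x axis), with 1 array per point, WT filled, KO open and the floor dashed. The Leydig mean of the WT female at E14.5 (8.64) lies above that of both E12.5 male arrays (7.09 and 7.44).

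By the same measure of likeness, the 5 genes nearest to Inha were Mag, Nhsl2, Zfp94, Polr2a and Mcpt1, with root mean square differences of 0.20 to 0.23. Their probe sets have the suffix r_at or f_at, which Affymetrix gave to sets with relaxed probe selection or shared within a gene family, and all 5 were at least 1 log2 unit higher on both E14.5 male arrays than on each of the other 6. Over those 6 arrays Inha spanned 0.75, under the limit of 1, so no likeness was computed there.

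Inhba (chr13:16004256-16031609, GRCm38.p6), which encodes the subunit of activin A, lay at 7.33 in WT and 7.15 in KO females and at 7.05 in WT and 6.88 in KO males at E12.5. At E14.5 it was at 7.96 and 8.41 in WT and KO females and at 8.30 and 8.00 in WT and KO males. Every E14.5 array was above every E12.5 array, and at neither stage did WT and KO separate across the sexes.

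In the fit, Inhba rose from E12.5 to E14.5 by 0.94 ± 0.16 in females (limma adjusted p = 0.0226), where 8.41% of all probe sets were called higher, and the pairs gave 0.63 in WT and 1.26 in KO. In males it rose by 1.13 ± 0.16 (limma adjusted p = 0.00214), where 38% were called higher. The stage effects differed between the sexes by 0.19 ± 0.23 (limma adjusted p = 0.491), with a 95% interval of -0.41 to 0.78. With the floor at the 60th percentile the rises were 0.19 in females and 0.13 in males and did not pass (limma adjusted p = 0.291 and 0.335). In males the rise was 0.40 without centring. It was lost when the WT male E12.5 (0.127), the KO male E12.5 (0.0948) or the WT male E14.5 array (0.0619) was left out, the values being limma adjusted p. KO effects of Inhba were 0.14 ± 0.16 in females and -0.18 ± 0.16 in males (limma adjusted p = 0.729 and 0.823).

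Nearest to Inhba in profile were Tex19.1 (0.13), a germ cell gene, S100a6 (0.20), Igfbp6 (0.21), an insulin-like growth factor binding protein, and the matrix genes Col6a2 (0.22) and Dcn (0.22). Without the E14.5 male arrays 0 of these 5 remained among the nearest 5, which were then Hprt, H2-Q4, Dazl, Mlf1 and H2-Bl at 0.09 to 0.12. That search covered only 288 probe sets, those that spanned at least 1 log2 unit over the remaining 6 arrays. Igfbp6, at 8.62 to 9.51 on these arrays, spanned less and could not be listed, so the 2 lists are not drawn from the same genes.

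Among the receptors, Acvr2b (chr9:119401583-119442148, GRCm38.p6), a type II receptor, was at 9.50 and 9.46 in WT and KO females and at 9.48 and 9.43 in WT and KO males at E12.5. At E14.5 it was at 8.81 and 8.85 in females and at 9.05 and 9.14 in males. All 4 arrays of E14.5 were below all 4 of E12.5, and within each sex and stage KO and WT differed by -0.05 to 0.09. It fell from E12.5 to E14.5 by 0.64 ± 0.07 in females (limma adjusted p = 0.0108), where 14.7% of all probe sets were called lower. In males it fell by 0.35 ± 0.07 (limma adjusted p = 0.0057), where 39.9% were. In males the fall was 0.16 with quantile normalization and did not pass (limma adjusted p = 0.0911), and it was also lost without the WT male E12.5 (0.0632) or the WT male E14.5 array (0.0547). The stage effect was 0.29 ± 0.09 less negative in males than in females (limma adjusted p = 0.0424), a sign that turned to -0.24 without centring and a call that was lost without any 1 array (limma adjusted p = 0.0565 to 0.179) or without the filter on dim probe sets (0.075). At E14.5 males were above females by 0.27 ± 0.07 (limma adjusted p = 0.0157), which became -0.12 without centring and was lost without the WT female (0.135), KO female (0.0733) or KO male E14.5 array (0.111).

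Acvr2a (chr2:48814109-48903264, GRCm38.p6), the other type II receptor, was at 7.95 and 7.75 in WT and KO females and at 7.91 and 7.94 in WT and KO males at E12.5 by the brighter probe set. At E14.5 the females were at 7.65 and 7.63, and the males at 6.03 and 6.13, under the floor. The second probe set gave 6.73 and 6.69 in WT and KO females and 6.18 and 6.16 in males at E12.5, then 6.22 and 6.36 in females and 4.95 and 4.87 in males at E14.5. Both probe sets were thus lowest on the E14.5 male arrays. By the first of them, Acvr2a fell in males by 0.93 ± 0.06 in the fit (limma adjusted p = 0.000181), which takes the E14.5 male values at the floor. The measured differences were -1.88 in WT and -1.81 in KO. In females the difference was -0.21 ± 0.06 (limma adjusted p = 0.0764). The male stage effect was 0.72 ± 0.09 below the female one (limma adjusted p = 0.00199; 0.0553 and 0.0582 without the WT or KO male E12.5 array), and the male minus female difference at E14.5 was -0.65 ± 0.06 (limma adjusted p = 0.000565). In each of these comparisons that involve the E14.5 male arrays, 69% to 77.8% of all probe sets passed.

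The type I receptor Acvr1b (chr15:101174072-101213684, GRCm38.p6) varied least of the 7 probe sets. It was at 7.18 and 7.27 in WT and KO females and at 7.58 and 7.43 in WT and KO males at E12.5, and at 7.46, 7.49, 7.53 and 7.46 in the same order at E14.5. Males lay above females at E12.5 in both genotypes. The difference of 0.28 ± 0.05 passed (limma adjusted p = 0.0298), as did 16.3% of all probe sets, with 7.77% of all probe sets called higher in males. Without centring it was 0.42, against a median of all probe sets of 0.12 in that setting. From E12.5 to E14.5 Acvr1b rose in females by 0.25 ± 0.05 (limma adjusted p = 0.0265), which became -0.0018 without centring, where the median of all probe sets was -0.27. In males the stage effect was -0.01 ± 0.05, and the difference between the sexes was -0.26 ± 0.07 (limma adjusted p = 0.0191). That difference was lost without any 1 array other than the KO male ones (limma adjusted p = 0.0581 to 0.0983), and with the floor at the 20th percentile (0.0538).

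In all, 3 of the 6 fitted probe sets passed for stage in females, beside 23.1% of all probe sets, and 4 in males, beside 77.8%. For the sex difference 1 passed at E12.5 and 3 at E14.5, beside 16.3% and 77.5%. The calls in females and at E12.5 needed all 8 arrays. When any 1 array was left out, the fit had 1 residual degree of freedom and 0 of all probe sets passed in either comparison, and the same held when both E14.5 male arrays were left out, with the female stage effects of Inhba, Acvr1b and Acvr2b unchanged in size at limma adjusted p of 0.0779, 0.0646 and 0.0576. Without a filter on dim probe sets these 3 had limma adjusted p of 0.135, 0.079 and 0.0626, and the sex difference of Acvr1b at E12.5 had 0.0933. No KO effect of a receptor passed. The 95% intervals of the female KO effect were -0.17 to 0.17 for Acvr2b, -0.28 to 0.05 for Acvr2a and -0.06 to 0.18 for Acvr1b.

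**Figure D5:**
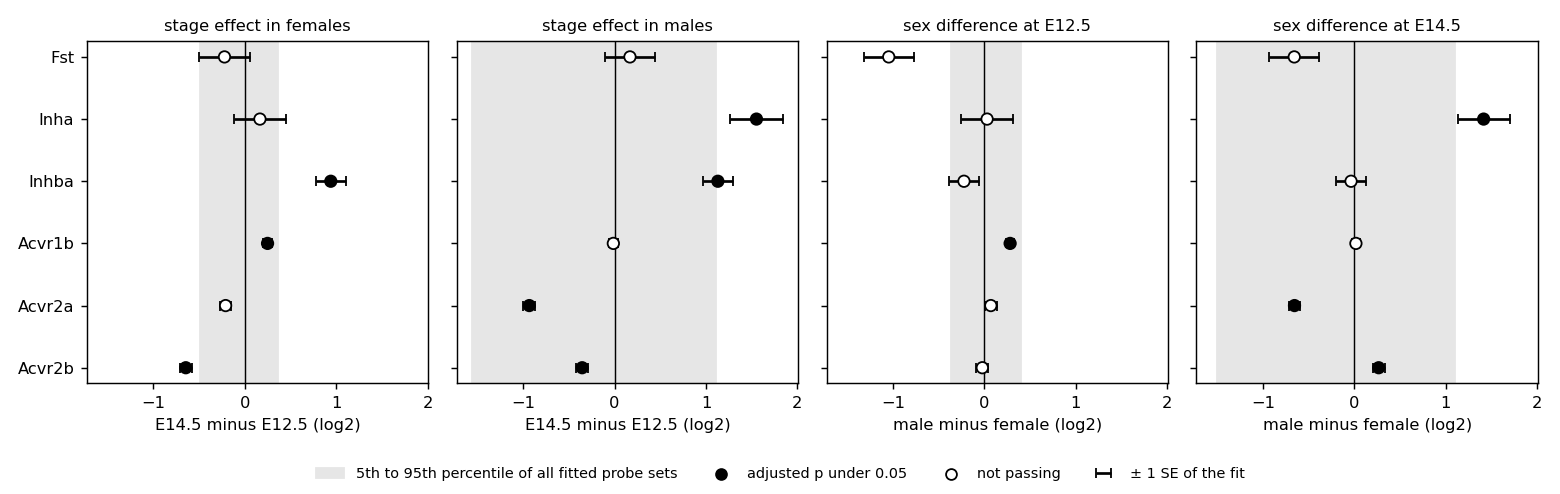
Fitted log2 differences (x axis) of the 6 genes (y axis) with ± 1 SE, for stage in each sex and for sex at each stage, filled where the adjusted p was under 0.05. The grey band spans the 5th to 95th percentile of all fitted probe sets and runs from -1.56 to 1.10 for stage in males, against -0.49 to 0.36 for stage in females, where Inhba (0.94) and Acvr2b (-0.64) lie outside it.

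The DNA just before the start of a gene is shown for Inhba, which rose with stage in both sexes, and for the type II receptor genes, of which Acvr2b fell in both sexes and Acvr2a in males. RefSeq windows of GRCm38.p6 were given for 5 of the 6 genes. These are the 250 bases before the start on the plus strand. The start of Acvr2a is that of the gene's whole span, and those of Inhba and Acvr2b lie 7595 and 595 bases inside it. The windows are chr13:16011601-16011850 for Inhba, chr2:48813859-48814108 for Acvr2a and chr9:119401928-119402177 for Acvr2b. Capitals mark matches on either strand to a TATA box spelled TATAAA, to GC boxes spelled GGGCGG, or to SMAD boxes spelled CAGAC, and no 2 matches overlap.
Inhba: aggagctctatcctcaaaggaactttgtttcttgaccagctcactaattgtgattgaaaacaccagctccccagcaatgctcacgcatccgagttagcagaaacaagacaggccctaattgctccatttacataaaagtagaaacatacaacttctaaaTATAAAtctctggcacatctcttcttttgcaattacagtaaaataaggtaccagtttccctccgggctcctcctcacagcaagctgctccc
Acvr2a: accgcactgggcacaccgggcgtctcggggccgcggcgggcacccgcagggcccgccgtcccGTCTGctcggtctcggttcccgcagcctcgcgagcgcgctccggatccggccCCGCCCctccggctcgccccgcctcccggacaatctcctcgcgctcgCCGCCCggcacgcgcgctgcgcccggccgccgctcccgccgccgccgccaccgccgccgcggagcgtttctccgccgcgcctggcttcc
Acvr2b: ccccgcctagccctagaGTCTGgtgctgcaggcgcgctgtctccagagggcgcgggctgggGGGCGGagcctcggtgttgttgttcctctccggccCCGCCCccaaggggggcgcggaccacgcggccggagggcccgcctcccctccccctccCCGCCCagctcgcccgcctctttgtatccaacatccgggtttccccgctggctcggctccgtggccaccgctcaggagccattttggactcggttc
The Inhba window was 43.2% G and C with 3 CpG dinucleotides, whereas Acvr2a had 82% with 49 and Acvr2b 72.8% with 24. The median of all 32851 windows of this length was 52.4% with 6. Inhba held 1 TATA box, a motif found in 12.4% of all windows. Acvr2a held 2 GC boxes and Acvr2b 3 (32.7% of all windows hold at least 1), and each held 1 SMAD box (42.2%). A CCAAT box, spelled CCAAT, is held by 33.8% of all windows, an AP-1 site spelled TGANTCA by 6.7%, a TCF/LEF site spelled CTTTGAT by 3.2%, and a nuclear receptor half-site spelled AGGTCA by 14%, and none of the 4 was in these 3 windows. A match describes the letters and is not evidence of a bound factor.

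Other genes of the pathway were taken from a list of 35, of which 28 had a probe set and 21 were fitted. They comprised ligands, receptors, inhibitors, signal transducers and genes set beside follistatin in the fetal ovary. In the KO comparisons 0 of 21 passed in females, in males or for the difference between them, with medians of 0, 0 and -0.02 against -0.02, 0.01 and 0.05 for all fitted probe sets. The homeobox gene Irx3, of the fetal ovary group, was the 1 gene at least 2-fold apart in both pairs of a sex, at -2.58 at E12.5 and -1.0002 at E14.5 in KO minus WT females. Lefty1, a Nodal inhibitor gene, was higher in KO females by 0.83 at E12.5 and 0.86 at E14.5. The 95th percentiles of all fitted probe sets were 0.19 and 0.20 in these pairs. Its fitted effect was 0.84 ± 0.07 and did not pass (limma adjusted p = 0.36).

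For stage in females, 1 of the 21 rose and 5 fell, beside 8.41% of all probe sets called higher and 14.7% called lower. The secreted follistatin-like protein gene Fstl1 rose by 0.52 ± 0.08, and Smad4, the common partner of the receptor-activated SMADs, fell by 0.42 ± 0.07. Smad7, an inhibitory SMAD, fell by 0.52 ± 0.09, Foxh1, a DNA-binding partner of SMAD2, fell by 0.32 ± 0.06, and the nuclear receptor gene Nr0b1 fell by 0.58 ± 0.05. Smad3 also passed, lower at E14.5, but all its E14.5 values were under the floor. The limma adjusted p of these 6 ran from 0.0104 to 0.0309.

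For stage in males, 7 of the 21 rose and 7 fell, where 77.8% of all probe sets were called. The beta B subunit gene Inhbb, of the other activin chain, fell there by 1.23 ± 0.17 (limma adjusted p = 0.00185), from 8.32 and 8.21 in WT and KO males at E12.5 to 7.09 and 6.57 at E14.5. Smad4 fell by 1.96 ± 0.07 and Smad2 by 1.09 ± 0.08, while Inhbc, another beta subunit gene, rose by 1.52 ± 0.07 (limma adjusted p from 7.21e-05 to 0.000213). Fstl1, which rose in females, fell in males by 1.62 ± 0.08 (limma adjusted p = 8.31e-05). Smad7, Nr0b1 and Ctnnb1 also fell, by 1.40, 0.61 and 0.51. The others that rose were Foxh1 (0.84), the ligand genes Gdf3 (0.77) and Inhbe (0.76), the co-receptor gene Tgfbr3 (0.37), the type I receptor gene Acvrl1 (0.32) and the Nodal inhibitor gene Lefty1 (0.20). Of these, Inhbe was above the floor on the E14.5 male arrays only (7.76 in WT and 7.73 in KO). It entered the fit through them alone, with its other values set to the floor. Tgfbr3 was under the floor in WT males at E12.5 (6.88) and in all females.

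For the sex difference at E12.5, 2 of the 21 were higher in males and 4 lower, beside 16.3% of all probe sets called, 7.77% of all being higher in males. Fstl1 (0.71 ± 0.08) and beta-catenin, Ctnnb1 (0.30 ± 0.06), were the higher ones. Nr0b1 (-0.45 ± 0.05), Rspo1 (-0.38 ± 0.07), whose product enhances Wnt signals and whose KO male value at E12.5 was missing, Inhbc (-0.30 ± 0.07) and Smad3 (-0.21 ± 0.03) were the lower ones (limma adjusted p of all 6 from 0.0221 to 0.0499). The E12.5 male values of Smad3 were at the floor in WT (6.99) and under it in KO (6.83), and the KO male value of Inhbc (6.96) was also under it. At E14.5, 6 were higher and 9 lower, beside 77.5% of all probe sets. The higher ones were Foxh1 (1.11), Inhbc (1.03), Gdf3 (1.02), Inhbe (0.76), Tgfbr3 (0.39) and Acvrl1 (0.23), with Inhbe and Tgfbr3 under the floor on all female arrays. The lower ones were Irx3 (-1.97), Smad4 (-1.44), Fstl1 (-1.43), Smad7 (-1.13), Smad2 (-0.999), Rspo1 (-0.78), Nr0b1 (-0.49), the oocyte ligand gene Gdf9 (-0.33) and the activin inhibitor gene Fstl3 (-0.27).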

How the data were processed

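The deposited table holds 1 column per array, which matched the sample labels by accession. Its values were made by the authors with MAS5, per the submitters' processing notes. The sources used here give neither its version nor its scaling. The log2 unit was read from the deposited values. Spreadsheet date serials (41278 to 41284) stood in 14 cells of KO male E12.5 and were set to missing, and none belonged to the 6 genes.

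Array medians were brought to their mean, a shift of 0.43 and 0.47 for WT and KO males at E14.5 and of -0.34 to 0.09 elsewhere. The 66 control probe sets were left out. Tests used limma 3.58.1 in R 4.3.3 (eBayes with an intensity trend), two-sided. Moderation added 2.76 prior degrees of freedom. A genotype effect real at 1 stage only counts as error. Probe sets were named from the platform annotation (1 gene for 10855, several for 396, none listed for 1237), and all 6 genes matched RefSeq. Where a listed gene had several probe sets, the brightest stood for it. The fit was tried on simulated data with independent noise and a female KO effect equal at both stages, in probe sets well above the floor. Fst, near or under the floor on most arrays and with a female KO difference that varied with stage, is not such a case.

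Named were all probe sets of the 6 genes, listed pathway genes that passed or were 2-fold apart in both pairs, the 5 genes most like each member spanning at least 1 log2 unit, and markers. The members and lists were chosen with earlier results of these data known. Labels do not say whether the arrays come from separate embryos. Alternatives were other scalings, floors, filters, models and left-out arrays.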

Additional observations from a re-analysis of the deposited data

Results flagged for a closer look

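The stage effect differed between males and females by the interaction test of the limma fit for 4 of the 6 genes, and each of these differences rests on the E14.5 male arrays, with 69% of all probe sets passing the same test. The male minus female difference in the stage effect was 1.39 for Inha (adjusted p = 0.0312), -0.26 for Acvr1b (0.0191), -0.72 for Acvr2a (0.00199) and 0.29 for Acvr2b (0.0424). Leaving out any 1 array brought the number of genes that passed from 4 to between 0 and 2.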

How the results depend on the processing

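The sample labels name no litter or other link between arrays, so no analysis paired by such a link was run. Each group had 1 array. Precision is limited by the number of arrays, and Fst in 6 of the 8 arrays and Acvr2a in E14.5 males lay near or under the floor.

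In the KO comparisons 0 members passed under every alternative. For stage in females (3 of 6 by the main setting) 1 passed with the floor at the 60th percentile, 0 without a filter on dim probe sets, where 0.322% of all passed, 0 without both E14.5 male arrays, and 0 without any 1 array. For stage in males (4) the count was 2 with the 60th percentile floor and 1 to 4 with 1 array left out (1 without the WT male E12.5 or E14.5, 2 without the KO male E12.5 array). For stage by sex (4) it was 2 without centring, with the 60th percentile floor or without a filter, and 0 to 2 with 1 array left out. For sex at E12.5 (1) it was 2 without centring, with the 20th percentile floor or with no floor, and 0 with the 60th percentile floor, without a filter, without both E14.5 male arrays or without any 1 array. For sex at E14.5 (3) it was 5 without centring and 1 to 4 with 1 array left out (1 without the KO female E14.5 array).

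Signs turned mostly for values that had not passed. Without centring the median of all probe sets was -0.27 for stage in females, -0.69 for stage in males, -0.41 for stage by sex, 0.12 for sex at E12.5 and -0.27 for sex at E14.5, and the share of calls that were higher was 5.24%, 11.1%, 18.1%, 85.7% and 27.5% against 36.4%, 48.8%, 51%, 47.7% and 51% with it. In that setting Acvr2b turned to 0.0403 and -0.0084 for KO in females and males, -0.0487 for KO by sex, -0.24 for stage by sex, 0.12 for sex at E12.5 and -0.12 for sex at E14.5. Fst turned to -0.20 for KO in males and for stage in males, Inha to -0.0851 for stage in females, Acvr1b to -0.0018 for stage in females and -0.37 for sex at E14.5, and Inhba to -0.28 for stage by sex (-0.0576 with the 60th percentile floor). With quantile normalization Acvr2b turned to 0.0498 for KO in females and -0.0451 for KO by sex. Without both E14.5 male arrays the KO effect in males turned to -0.0472 for Fst, 0.31 for Inha and -0.0511 for Acvr2b, and KO by sex to 0.0199 for Inha and -0.0501 for Acvr2b. With those arrays left out, the KO effect in males is by design the difference of the E12.5 male pair alone, and KO by sex rests on it. The cause of the other turns was not tested.

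With 1 array left out, signs turned within these ranges. For KO in females they were -0.16 to 0.75 for Inha, -0.17 to 0.45 for Inhba and -0.0398 to 0.0377 for Acvr2b. For KO in males they were -0.0472 to 0.38 for Fst, -0.51 to 0.31 for Inha and -0.0511 to 0.0919 for Acvr2b, and for KO by sex -0.84 to 0.0619 for Inha and -0.0501 to 0.0929 for Acvr2b. Stage in females gave -0.77 to 0.33 for Fst and -0.29 to 0.62 for Inha, stage in males -0.0472 to 0.38 for Fst and -0.0542 to 0.028 for Acvr1b, and stage by sex -0.16 to 0.94 for Fst and -0.13 to 0.50 for Inhba. Sex at E12.5 gave -0.42 to 0.48 for Inha, -0.54 to 0.0914 for Inhba, -0.0218 to 0.16 for Acvr2a and -0.0941 to 0.0489 for Acvr2b, and sex at E14.5 -0.35 to 0.28 for Inhba and -0.0229 to 0.0593 for Acvr1b. With the floor at the 60th percentile Acvr1b and Acvr2a were not fitted. The model with sex by genotype and stage gave KO effects only, and that with sex by stage and genotype gave stage and sex effects only.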
